A study of Mus musculus with 12 samples.

Results

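Fetal liver cells labelled as haematopoietic stem cells (HSC) were split by whether a transcript of H19 was counted in them. Cells were chosen by 2 steps: a well was kept with at least 1000 detected genes, at least 3000 unique molecular identifiers (UMIs, each standing for 1 captured RNA molecule) and under 20% of UMIs from mitochondrial genes, and a kept cell was then put on the side with H19 if it held at least 1 raw UMI of H19. Of the 1020 cells kept in the series, 454 came from fetal liver. Of these, 366 held H19 and 88 held none. H19 chose the sides, so its own levels are given as a description, and it was left out of every other comparison.

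The cells came from mice of a lineage-tracing line with CRISPR barcodes, in a study that reads the transcriptome together with clonal barcodes, DNA methylation and chromatin of single cells. The HSC were sorted singly into 96-well plates, of which 2 hold cells of the aorta-gonad-mesonephros region (AGM), 5 hold fetal liver cells and 5 hold bone marrow cells. Nuclei were taken off on beads, and the polyadenylated RNA of the cytoplasm was sequenced with a changed form of scSTRT-seq, a plate method that tags each RNA molecule during reverse transcription. Fetal liver plates 1 to 3 carry the origin code LL653E1 and plates 4 and 5 the code LL653E6. The labels give no age, treatment, sort markers or barcode induction for these plates, and an origin code may stand for 1 embryo or for several. The kept cells of a fetal liver plate held 3384993 to 8140383 UMIs in all, with plate medians of 35267 to 75735 UMIs a cell. Plates are therefore the unit of every test below, and the p-values measure the spread between plates of 2 origins rather than between animals.

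H19 is a long non-coding RNA transcribed from the maternal copy of an imprinted domain, while its neighbour Igf2, a fetal growth factor gene, is transcribed from the paternal copy. Both share enhancers, and a methylated control region decides which of them is used on each copy. H19 is abundant in embryonic tissues including liver, falls after birth, and is known in stem cells of adult marrow for restraining growth through the Igf2 and Igf1r pathway. Its first exon also holds the hairpin of a microRNA, miR-675, for which Igf1r is a known target.

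In the GENCODE annotation of GRCm38 (mm10), H19 lies at chr7:142575529-142578143 on the minus strand and Igf2 at chr7:142650766-142666816, 72.6 kb away. The miR-675 hairpin, at chr7:142577064-142577147, lies inside exon 1 of H19. The mature sequences below, from RefSeq for GRCm38.p6, are shown because their seeds were searched for among the measured genes. Capitals mark the seed, bases 2 to 8, by which a microRNA recognises a target.
mmu-miR-675-5p: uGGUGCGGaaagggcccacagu
mmu-miR-675-3p: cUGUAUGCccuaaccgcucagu
The 2 arms share no seed. Mature microRNAs carry no poly(A) tail and were not measured in these libraries.

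H19 was found in most cells of every fetal liver plate. It was counted in 69 of 95 cells of plate 1 (72.6%, exact binomial 95% interval 62.5% to 81.3%), 71 of 96 of plate 2 (74.0%, 64.0% to 82.4%) and 59 of 82 of plate 3 (72.0%, 60.9% to 81.3%). In the plates of the other origin it was counted in 83 of 92 cells of plate 4 (90.2%, 82.2% to 95.4%) and 84 of 89 of plate 5 (94.4%, 87.4% to 98.2%). The mean share was 80.6% ± 10.8 (SD, n = 5 plates), and both plates of LL653E6 lay above all 3 of LL653E1. These intervals cover counting error only. Over all UMIs of a plate, the level of H19 was 102, 102, 126, 175 and 187 CPM (counts per 1e6 UMIs) in plates 1 to 5, with a mean of 138 ± 40.4 (SD, n = 5).

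In the other tissues nearly all cells fell on 1 side. All 143 AGM cells held H19, at a median of 152 UMIs a cell and 839 CPM over all their UMIs. In bone marrow 5 of 423 cells held it (1.18%, exact interval 0.385% to 2.74%), and each of the 5 held 1 UMI, so this is the share of cells with a count in a tissue where H19 is near absent. Of 26 fetal liver wells left out by the filter, 3 held H19, with 5 UMIs in all.

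**Figure D1:**
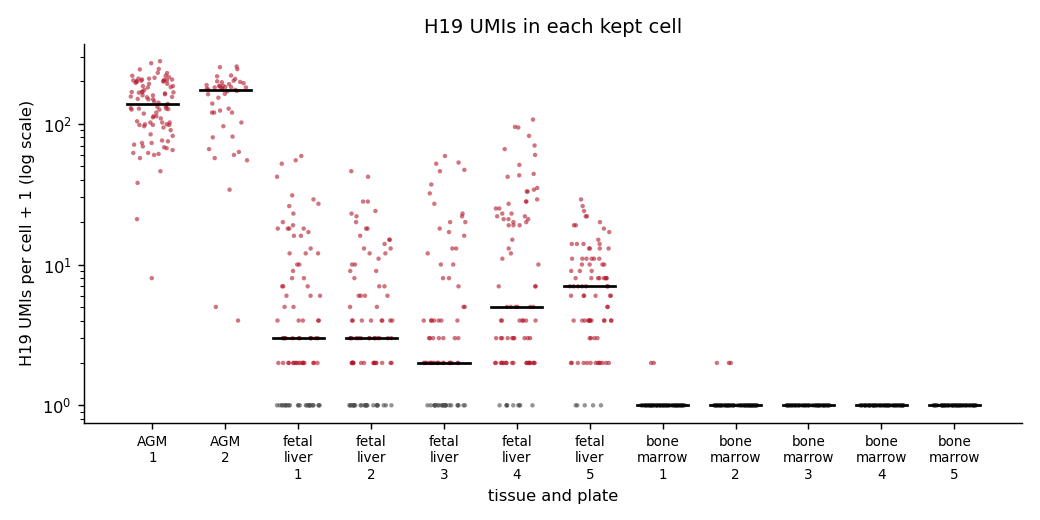
H19 UMIs in each kept cell, plotted as UMIs + 1 on a log scale for the 12 plates, with cells holding H19 in red, cells holding none in grey and the plate median as a black line. Every AGM cell lies above the bottom line, fetal liver cells spread from 0 to 106 UMIs, and bone marrow cells lie on the bottom line apart from 5 cells with 1 UMI.

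Within fetal liver the level of H19 varied widely from cell to cell. Cells that held it had a median of 4, 3, 3, 4 and 6 UMIs in plates 1 to 5, and the highest cell held 58, 45, 58, 106 and 28. Over all plates 186 cells held 1 to 4 UMIs, 121 held 5 to 19 and 59 held 20 or more. The split at 0 cuts through the low end of this range: 88 cells held 0 UMIs and 86 held exactly 1, so cells just outside and just inside the rule were about as many. The 45 cells with the most H19 held 49.9% of all its UMIs in fetal liver.

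A cell with no H19 UMI is not shown to lack the RNA, and the chance of finding it depended on how many UMIs a cell had. When the cells of each plate were divided by total UMIs into 3 groups of about equal size, H19 was found in 106 of 152 cells of the lowest group (69.7%), 118 of 149 of the middle group (79.2%) and 142 of 153 of the highest (92.8%). A larger share in the highest group than in the lowest was present in all 5 plates, from 62.5% to 78.1% in plate 1, 56.2% to 93.8% in plate 2, 55.6% to 100% in plate 3, 87.1% to 93.5% in plate 4 and 86.7% to 100% in plate 5. At its plate's mean level of H19, the median cell without it would have held 5.94, 3.79, 4.33, 13.6 and 2.26 UMIs in plates 1 to 5. In plate 5 only 2 of 5 cells without H19 were deep enough to hold 3 UMIs at that level, and in plate 4 it was 8 of 9. The plate mean is raised by cells with much H19. Among cells with H19 the median level per cell was 48.8, 70.6, 55.3, 75.9 and 153 CPM in plates 1 to 5, below the plate means. At a typical cell's level the expected UMIs would be fewer.

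Cells without H19 mostly had fewer UMIs and fewer detected genes. With H19 left out of the total, the median cell held 65332 UMIs with H19 and 58547 without in plate 1, 55166 and 36997 in plate 2, and 59233 and 34364 in plate 3. In plate 4 it held 75346 with and 77578 without, and in plate 5 it held 35500 with and 12079 without. The cells with H19 had more UMIs in 4 of 5 plates (two-sided exact sign-flip permutation test over plates, p = 0.125, smallest possible 0.062). With every cell thinned to 10000 UMIs, the median number of detected genes was 2484 with H19 and 2316 without in plate 1, 2436 and 2183 in plate 2, 2240 and 1590.0 in plate 3, 2400.0 and 2275 in plate 4, and 2598 and 1815 in plate 5. Detected genes were more in cells with H19 in 5 of 5 plates, by 396 ± 300 genes on average (SD, n = 5; exact p = 0.062, the smallest this design allows). Thinning left out 6 cells with H19 and 7 without, which were shallower than 10000 UMIs. Unthinned, the difference was 1213 genes.

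The make-up of the RNA differed between the sides in the same comparison. Ribosomal protein genes held 14.8%, 16.6%, 16.3%, 15.0% and 19.5% of a median cell's UMIs with H19 in plates 1 to 5, and 16.7%, 18.9%, 18.1%, 16.6% and 27.8% without, so the share was lower with H19 in all 5 plates. The mitochondrial share was under 0.4% on both sides in every plate except plate 3, where the median was 0.24% with H19 and 1.32% without.

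To allow for this, each cell without H19 was paired with a cell of the same plate that held H19 and had nearly the same total UMIs. Pairs were at most 0.1 apart on the log10 scale. This gave 76 pairs, 22, 24, 18, 8 and 4 in plates 1 to 5, and left 12 cells without H19 unpaired. The paired cells held 3761489 UMIs with H19 and 3751694 without. The paired cells with H19 had a median of 6.5, 5.0, 2.0, 2.0 and 3.0 H19 UMIs in plates 1 to 5, with up to 41 in a cell. After pairing, thinned genes were more with H19 in 4 of 5 plates (exact p = 0.1875), and the ribosomal protein share was higher with H19 in 2 of 5.

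**Figure D2:**
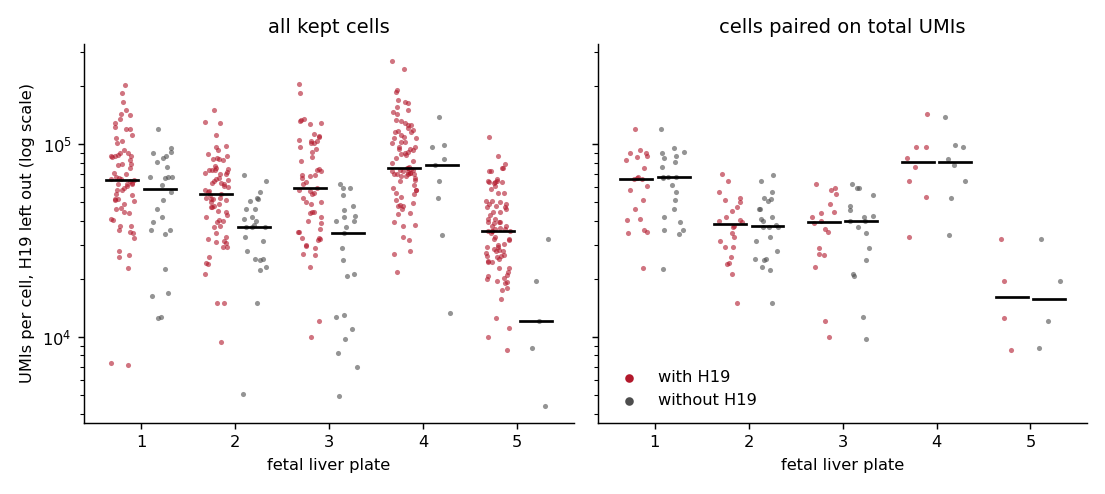
UMIs per cell without H19's own counts, on a log scale, for cells with H19 (red) and without it (grey) in the 5 fetal liver plates, with medians as black lines. On the left, all kept cells: the median is higher with H19 in 4 plates and lower in plate 4. On the right, the 76 pairs, whose medians nearly coincide.

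UMIs of the paired cells were summed per plate and side and compared with edgeR's quasi-likelihood test with the plate as a block. A gene was called at a Benjamini-Hochberg adjusted p under 0.05 over all 5822 genes tested. Apart from H19, which was left out, no gene passed: 0 genes were called (0% of those tested), the smallest adjusted p was 0.856, and 255 genes had an unadjusted p under 0.05. Of these, 118 were higher with H19 (2.03%) and 137 lower (2.35%). DESeq2 on the same sums called 2 genes, 1 in each direction, with 361 at an unadjusted p under 0.05, and limma voom called 0, with 405. Genes below are given as fold changes on the log2 scale, with against without H19, each with its standard error, and the levels are CPM of the paired sums. None passed edgeR's test, and a gene that did not pass is not shown to be equal on both sides. The median standard error was 0.62 over all tested genes, 0.31 over the 1722 genes of at least 100 CPM and 0.10 over the 167 of at least 1000 CPM.

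Igf2, the growth factor gene beside H19, differed in direction between plates. Its level with H19 was 66.5, 98.9, 14, 7.35 and 91.0 CPM in plates 1 to 5, and without H19 11.0, 27.2, 15.3, 44.7 and 69.4. It was higher with H19 in plates 1, 2 and 5 and lower in plates 3 and 4, and the ranges overlapped. The log2 fold change was 0.58 ± 0.82 (95% interval -1.12 to 2.28, adjusted p = 1.0), and it was -0.01 without plate 1 and -1.14 in plates 4 and 5 alone. In plate 4, 28 of the 30 Igf2 UMIs without H19 came from 1 cell.

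More cells held a UMI of Igf2 on the side with H19. Among all kept cells it was found in 35 of 69 with H19 and 6 of 26 without in plate 1, 30 of 71 and 7 of 25 in plate 2, 11 of 59 and 2 of 23 in plate 3, 49 of 83 and 4 of 9 in plate 4, and 58 of 84 and 2 of 5 in plate 5. That is 50.0% of cells with H19 and 23.9% of cells without, in the same direction in all 5 plates, and these sides differ in depth. In the paired cells it was found in 29 of 76 with H19 (38.2%) and 18 of 76 without (23.7%), with plate 5 equal at 1 of 4 on each side. Across the cells of a plate, the Spearman correlation of Igf2 and H19 counts was 0.34, 0.28, -0.02, 0.33 and 0.20 in plates 1 to 5 (95, 96, 82, 92 and 89 cells). Both counts grow with a cell's total UMIs, and this is a description only.

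The other imprinted genes showed no difference that the test could call. The list of imprinted genes of the growth network held 46 genes, of which 13 were tested. Their median log2 fold change was 0.16, beside 0.04 over all tested genes. None had an unadjusted p under 0.05, beside 4.38% of all tested genes, and a list this short could hold none at that share. Cdkn1c, an inhibitor of the cell cycle, had 61.8 ± 49.4 CPM with H19 and 48.4 ± 32.2 without (SD, n = 5 plates). Its log2 fold change was 0.16 ± 0.58, and its sign turned under 10 of the other settings. Igf2r, which clears Igf2, Dlk1 and the non-coding RNA Meg3 were too low to be tested: Igf2r had 14.1 CPM with H19 and 13.6 without, Dlk1 14.3 and 25.8, and Meg3 3.79 and 4.36. The list of Igf signalling had 6 of 26 genes tested, with a median of 0.19 and none at an unadjusted p under 0.05, beside the same 4.38%. Igf1r, the receptor through which Igf2 acts, had 54.1 CPM with H19 and 67.7 without on average over plates. The fit, which weighs plates by their counts, gave it a log2 fold change of 0.20 ± 0.65, with the opposite sign, and it was higher with H19 in 3 of 5 plates, so no direction is read from it.

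Genes with a seed match to miR-675 in their 3′ untranslated region were looked at as a group, since that microRNA is made from H19. The site for miR-675-3p, GCATACA, was found on the sense strand of the longest untranslated region in 452 of 5662 tested genes with one annotated (7.98%, and 8.37% of all 21166 such regions). Their median log2 fold change was 0.10, and Igf1r was among the 452. Of these genes 10 were higher and 9 lower with H19 at an unadjusted p under 0.05, beside 2.03% and 2.35% of all tested genes. The site for miR-675-5p, CCGCACC, was found in 134 of 5662 (2.37%, and 2.22% of all), with a median of 0.17, 2 higher and 0 lower at that p. The median of all 5662 was 0.04, and no gene with either site was called. A match is only a description of the letters.

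Both sides expressed the genes by which stem cells are known. In the paired cells Procr, the surface receptor of HSC, was found in 67 of 76 cells with H19 and 64 of 76 without, Cd34 in 68 and 66, Ly6a (Sca-1) in 60 and 54, Hlf in 66 and 55, and Mecom in 59 and 52. Of 40 stem cell identity genes 34 were tested. Their median log2 fold change was 0.23, 24 were positive and 10 negative, and 3 were higher with H19 at an unadjusted p under 0.05 and 0 lower, beside 2.03% and 2.35% of all tested genes. The 3 were Mllt3, Hlf and Ly6a.

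Mllt3, a chromatin reader of the transcription elongation machinery that maintains stem cells, had 394, 286, 329, 420.4 and 379 CPM with H19 in plates 1 to 5, and 221, 115, 273, 207 and 52.0 without. It was higher with H19 in 5 of 5 plates, as were 212 of all 5822 tested genes. In plate 4, 128 of its 139 UMIs without H19 came from 1 cell. It was found in 64 of 76 paired cells with H19 and in 59 without. The log2 fold change was 1.05 ± 0.29 (unadjusted p = 0.00168, adjusted p = 1.0). Hlf, a transcription factor largely restricted to stem cells among blood cells, had 219, 239, 253, 206 and 182 CPM with H19 and 151, 109, 181, 143 and 52.0 without. Each plate was higher with H19, and the sides nearly touched at 182 and 181. The log2 fold change was 0.78 ± 0.32 (unadjusted p = 0.0231, adjusted p = 1.0). In all kept cells without pairing the values were 0.26 for Mllt3 and 0.05 for Hlf, and with depth as a covariate Hlf was at -0.13. That covariate was 1 value per plate and side, so it partly followed the side itself. Ly6a, named after its values were seen, had 267 CPM with H19 and 100.7 without, and a log2 fold change of 0.94 ± 0.40.

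Other stem cell genes were less regular. Procr had 213, 399, 197, 194 and 167 CPM with H19 and 159, 208, 124, 109 and 260.2 without, higher with H19 in plates 1 to 4 and lower in plate 5, with a log2 fold change of 0.53 ± 0.30. Mecom, a transcription factor needed for stem cell upkeep, had 263, 122, 267, 103 and 334 CPM with H19 and 111, 153, 288, 103 and 0 without. In plate 5 it had 22 UMIs with H19 and 0 without, in 4 cells a side. Its log2 fold change was 0.58 ± 0.45, and 0.20 without plate 5. Mecom was at -0.20 in all kept cells without pairing. Flt3, a receptor of multipotent and lymphoid progenitors, had 45.2 ± 34.2 CPM with H19 and 61.7 ± 35.7 without (SD, n = 5), a log2 fold change of -0.48 ± 0.57.

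Kit, the receptor for stem cell factor, was chosen for description after its values were seen. It was found in 52 of 76 paired cells with H19 (68.4%) and 36 of 76 without (47.4%). By plate these were 17 and 15 of 22, 13 and 11 of 24, 11 and 6 of 18, 8 and 4 of 8, and 3 and 0 of 4, more with H19 in every plate. Among all kept cells the shares were 74.0% and 47.7%. Paired cells with H19 had a higher median of detected genes in 3 of 5 plates, and in 4 of 5 after thinning. What this adds to the Kit counts was not tested, and no such share over all genes is given. The UMI level of Kit was 98.3 CPM with H19 and 53.3 without, with a log2 fold change of 0.71 ± 0.54 (adjusted p = 1.0). Counting cells in place of UMIs called 0 genes, but 0 of its 1635 tested genes had even an unadjusted p under 0.05. That setting could hardly call any gene.

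The fetal stem cell programme was divided between the sides. Of 17 genes 10 were tested, 5 positive and 5 negative, with a median log2 fold change of 0.01. Hmga2, an architectural chromatin factor typical of fetal stem cells, had 283, 211, 324, 176 and 152 CPM with H19 and 115, 137, 159, 110.4 and 34.7 without. It was higher with H19 in every plate, the sides overlapped between plates, and the log2 fold change was 1.01 ± 0.32 (adjusted p = 1.0). Arid3a, a transcription factor of fetal lymphoid development, had 84.7, 74.5, 83.7, 69.1 and 136 CPM with H19 and 42.6, 15.8, 64.4, 20.9 and 0 without, at 1.59 ± 0.60. Another member, Igf2bp3, had an unadjusted p under 0.05 in the other direction, at -1.18.

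**Figure D3:**
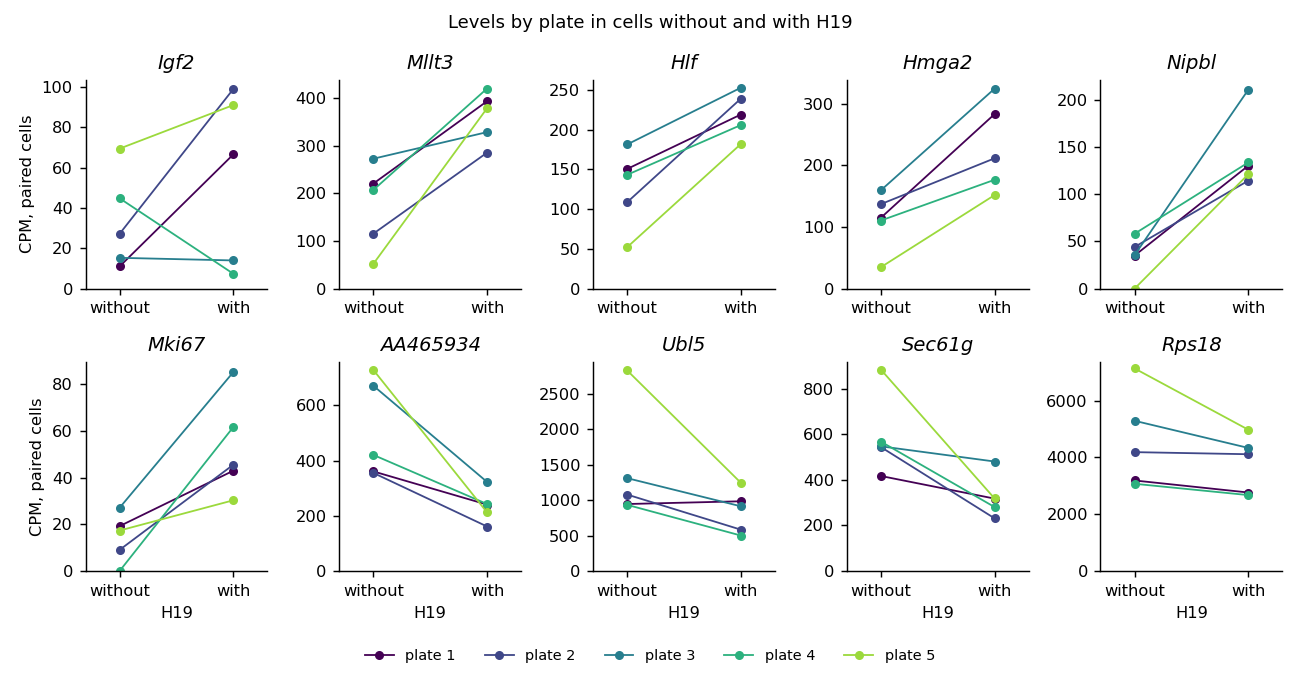
Levels of 10 genes in the paired cells without and with H19, in CPM on a linear scale from 0, each line joining the 2 sides of a fetal liver plate. Igf2 goes up in 3 plates and down in 2, Mllt3, Hlf, Hmga2, Nipbl and Mki67 are higher with H19 in 5 plates, and AA465934, Sec61g and Rps18 are lower in 5. Ubl5 is lower in 4. None of them passed the test over all genes. Of all 5822 tested genes, 212 were higher with H19 in all 5 plates and 196 were lower.

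The genes with the smallest p and higher levels with H19 had varied roles. Nipbl, which loads cohesin onto chromosomes, came first, with 130.4, 114, 211, 134 and 121 CPM with H19 and 35.1, 44.1, 35.6, 58.2 and 0 without. It was higher with H19 in 5 of 5 plates, as were 212 of all 5822 tested genes. The log2 fold change was 1.92 ± 0.49 (unadjusted p = 0.000824, adjusted p = 1.0). DESeq2 called it, with an adjusted p of 0.0428. The 10 genes also included Mllt3 and Hmga2, Pnisr, a protein of nuclear speckles (1.75 ± 0.50), Cnot6, a deadenylase (2.09 ± 0.61), Ppp3ca, the catalytic subunit of calcineurin (1.77 ± 0.54), and Hilpda, a lipid droplet protein induced by hypoxia (1.85 ± 0.56). Mospd1 was at 2.72 ± 0.81, Plekho2 at 2.53 ± 0.77 and Mfap3 at 1.86 ± 0.58. Most were low: the mean level without H19 was 8.52 to 51.9 CPM for these genes other than Mllt3 and Hmga2. Ppp3ca and Mfap3 were negative in all kept cells with depth as a covariate.

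Of the 10 genes with the smallest p and lower levels with H19, AA465934, at chr11:83291699-83294632, came first, with 241, 161, 323, 243 and 212 CPM with H19 and 361, 355, 671, 421 and 728 without. It was lower with H19 in 5 of 5 plates, as were 196 of all 5822 tested genes. The log2 fold change was -1.02 ± 0.23 (unadjusted p = 0.000208, adjusted p = 0.856). DESeq2 called it, with an adjusted p of 0.0222. Ubl5, a ubiquitin-like protein with a part in splicing, had 982, 583, 912, 499.8 and 1243 CPM with H19 and 944, 1077, 1309, 932 and 2827 without. It was lower with H19 in 4 of 5 plates, at -0.67 ± 0.15 (adjusted p = 0.856), and it was called when the filter on low counts was dropped or eased (adjusted p = 0.0198 and 0.0105). In all kept cells with depth as a covariate it was at 0.00082.

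Sec61g, a subunit of the channel that takes proteins into the endoplasmic reticulum, had 318, 231, 481, 281 and 318 CPM with H19 and 417, 544, 547, 568 and 885 without, lower in 5 of 5 plates, at -0.82 ± 0.22. Krtcap2, a subunit of the oligosaccharyltransferase, was at -0.50 ± 0.15, and Ubl4a, a chaperone of tail-anchored membrane proteins, at -1.65 ± 0.46. The mitochondrial genes were Micos13 of the cristae junction complex (-0.63 ± 0.18), Cox7b of respiratory complex IV (-0.43 ± 0.13) and Fars2, the mitochondrial phenylalanyl-tRNA synthetase (-2.41 ± 0.72). The ribosomal ones were Rps18 (-0.24 ± 0.07) and the variant Rps27l (-0.46 ± 0.14).

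Genes of the cell cycle had medians near that of all genes once depth was matched. Of 48 S phase genes 36 were tested, with a median log2 fold change of -0.06, 1 higher and 0 lower at an unadjusted p under 0.05. Of 54 genes of G2 and M phase 42 were tested, with a median of 0.06, 3 higher and 1 lower. Of all tested genes 2.03% were higher and 2.35% lower at that p. Without pairing the medians were 0.48 and 0.58, beside 0.24 over all genes. Mki67, a marker of dividing cells, had 43.0, 45.6, 85.3, 61.7 and 30.3 CPM with H19 and 19.2, 9.05, 27.1, 0 and 17.3 without. It was higher with H19 in 5 of 5 plates, at 2.24 ± 0.86 (unadjusted p = 0.017, adjusted p = 1.0). Few cells stood behind these sums: Mki67 was found in 24 paired cells with H19 and 16 without, and in plates 3 and 4 a single cell gave 52 of 55 and 40 of 42 UMIs with H19. Ccnb1, cyclin B1, had 113 ± 77.9 CPM with H19 and 62.9 ± 58.0 without (SD, n = 5), at 1.08 ± 0.45, and at -0.68 in all kept cells with depth as a covariate.

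Ribosomal protein genes made up most of the genes called where depth was not allowed for. In the sums of all kept cells 9094 genes were tested, and 67 fell with H19 (0.737%) while 1 rose. Leaving out 1 plate at a time gave 43 to 64 genes lower, with 43 without plate 2, and 0 to 2 higher. Of the 68 genes 55 were ribosomal protein genes by symbol, all of them lower. The median log2 fold change of all genes in that fit was 0.24, so each value is to be read against that shift. Rps29, a protein of the small ribosomal subunit, had 4502, 5396, 4614, 4241 and 6357 CPM with H19 and 5291, 6486, 6666, 4754 and 11903 without, a log2 fold change of -0.59 ± 0.07 (edgeR adjusted p = 5.07e-12). Rps27 and Rpl36 were at -0.59 ± 0.08 and -0.60 ± 0.08. Each of the 3 was lower with H19 in every plate.

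These differences were smaller when cells of like depth were compared. Of the 68 genes 67 were tested in the paired cells, 66 kept their sign and 0 were called. An unadjusted p under 0.05 was found for 19, beside 4.38% of all tested genes. The paired cells are among the cells whose sums picked the 68 genes, so kept signs and small p are no independent support. A list picked by 1 fit is also likely to show smaller values in another. The median log2 fold change of these genes went from -0.46 to -0.12. With depth as a covariate it was -0.21 with 0 called, but depth and side were poorly separated in that fit. With all cells thinned to 10000 UMIs 28 of the 68 were called. Rps29 was at -0.10 ± 0.06 in the paired cells, and at -0.38 ± 0.07 with all cells thinned (edgeR adjusted p = 9.8e-05). Ribosomal protein genes have many near-identical pseudogenes, and how reads were divided between them is not known here.

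In the paired cells the list of 52 ribosomal proteins had a median of -0.11, with 47 members negative and 5 positive, and 8 lower and 0 higher at an unadjusted p under 0.05, beside 2.35% of all tested genes lower at that p. Summed over the list, their TMM-scaled level was lower with H19 in 5 of 5 plates, with a mean of 181673 CPM with H19 and 197694 without. Rps18 had 2762, 4109.8, 4331, 2671 and 4973 CPM with H19 and 3186, 4183, 5287, 3069 and 7129 without, and Rplp1, of the ribosomal stalk, had a log2 fold change of -0.19 ± 0.07. The 38 tested genes of the respiratory chain had a median of -0.12, with 34 negative and 4 positive, and 6 lower and 0 higher at that p. Their summed TMM-scaled level was also lower in 5 of 5 plates, 23859 CPM with H19 and 27070 without on average. Atp5g1 and Atp5j, subunits of ATP synthase, were at -0.40 ± 0.14 and -0.39 ± 0.15. After thinning, detected genes were more with H19 in 4 of 5 plates of paired cells and fewer in plate 2. Without thinning they were more in 3 of 5, and their part in the result was not tested.

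**Figure D4:**
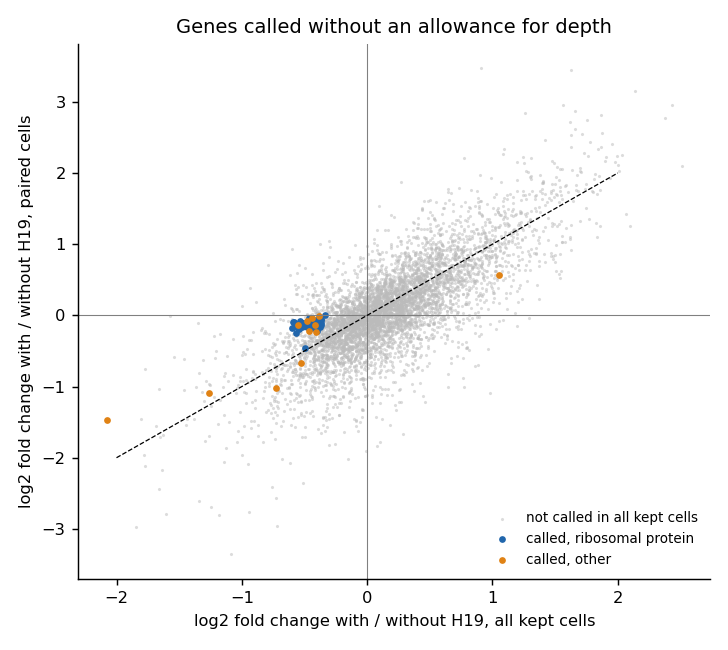
Log2 fold changes with against without H19 for every gene tested in both fits, in all kept cells (horizontal axis) and in cells paired on total UMIs (vertical axis), with the dashed line marking equal values. Blue points are ribosomal protein genes called in all kept cells and orange points other called genes. The blue points lie between about -0.6 and -0.3 on the horizontal axis and mostly near -0.1 on the vertical one.

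Of the other genes called in the fit without an allowance for depth, 3 are given here with their values in the paired cells. The difference between the fits was not itself tested. Pclaf, a clamp-associated factor of DNA replication, was the 1 gene that rose, at 1.06 ± 0.26. It had 346, 403, 474, 261 and 412 CPM with H19 and 337, 236, 319.6, 38.0 and 26.1 without, and in the paired cells it was at 0.56 ± 0.29. Hist1h2bc, a histone H2B gene, had 271, 116, 128, 177 and 189 CPM with H19 and 206, 391, 300.3, 331 and 718 without, at -1.26 ± 0.24. Its value in the paired cells was -1.09 ± 0.42, and it was called lower in the pairs of plates 4 and 5 alone (adjusted p = 0.0414). Tmsb4x, an actin-binding peptide, went from -0.48 ± 0.10 to -0.08 ± 0.08.

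No gene of the lineage lists was called in the paired cells. The lymphoid list had 7 of 26 genes tested and a median of 0.75, with 3 higher and 0 lower at an unadjusted p under 0.05, beside 2.03% and 2.35% of all tested genes. Bank1, a B cell adaptor, had 58.9 ± 45.6 CPM with H19 and 19.8 ± 11.2 without (SD, n = 5), at 1.64 ± 0.75. The erythroid list had 5 of 27 tested, a median of -0.13, and 1 higher, the alpha globin gene Hba-a2, found in 14 cells with H19 and 4 without, at 30.8 ± 14.3 and 8.17 ± 10.8 CPM (SD, n = 5). Hba-a2 was at 3.47 ± 1.37 in the paired cells and at -1.63 in all kept cells with depth as a covariate. The megakaryocyte list (6 tested, median 0.41), the myeloid list (10, 0.14), the interferon list (23, 0.25) and the immediate early list (11, -0.22) had 0 genes at an unadjusted p under 0.05 in either direction.

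**Figure D5:**
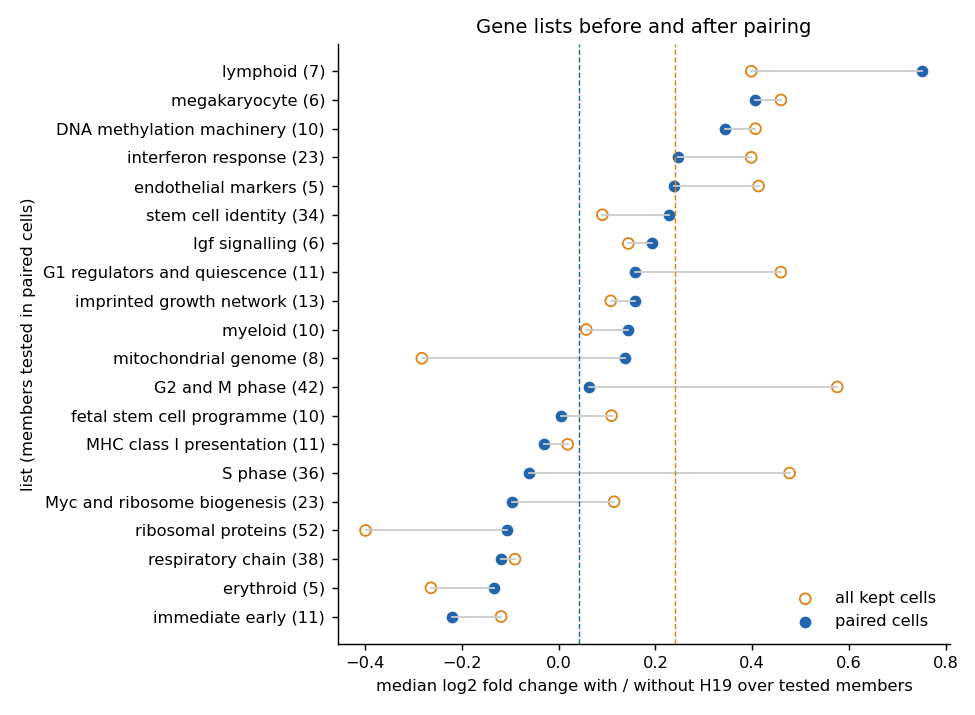
Median log2 fold change with against without H19 for each list with at least 5 genes tested in the paired cells, in paired cells (filled blue) and in all kept cells (open orange), with dashed lines at the medians of all tested genes, 0.04 and 0.24. S phase and G2 and M phase genes lie at 0.48 and 0.58 in all kept cells and at -0.06 and 0.06 in paired cells.

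Markers of other cells that a fetal liver sort could hold were summed over each list in the paired cells. Their part in the results was not tested. Summed over 20 hepatocyte genes, the level was 75.3 to 248 CPM per plate with H19 and 103 to 555 without, lower with H19 in 4 of 5 plates, and of that list 1 gene, Serpina1b, was at 0. Hepatocytes also express H19. Of the list 2 genes were tested, Krt18 at -0.70 ± 0.50 and Trf at 0.31 ± 0.68, and in plate 5 Krt18 alone was at 486 CPM without H19, in a sum of 4 cells. Over 15 stroma and stellate genes it was 0 to 19.5 CPM with H19 and 0 to 25.4 without, with Col3a1, Dcn and Lum at 0. The macrophage list gave 350 to 794 and 485 to 1110.1 CPM, with C1qa and Vsig4 at 0. Most of it was Lyz2, a lysozyme that blood progenitors also express, with 513 CPM with H19 and 635 without, found in 75 of 76 paired cells on each side. Cd68 was found in 37 and 30 cells. The endothelial list, many of whose genes stem cells also express, gave 865 to 1097 and 715 to 1179 CPM, with Lyve1 at 0. Of this, Egfl7 had 602 and 505 CPM and was found in 76 and 75 cells. Mast cell and basophil genes summed to at most 16.2 and 16.5 CPM, with 8 of 10 at 0, and T and NK cell genes to at most 20.6 and 15.3, with 4 of 11 at 0.

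In the plates of the 2 origin codes a pair of mitochondrial transcripts went differently with H19. Plates lie within an origin code and the codes themselves are not replicated, so no difference between origins in general is shown. A test of the side by origin interaction over the paired sums called 2 of 5822 genes (0.0344%), mt-Nd1 and mt-Nd2, both encoding subunits of respiratory complex I. For mt-Nd2 the level with H19 was 275, 525, 1089, 131 and 212 CPM in plates 1 to 5, and without H19 400.0, 405, 1607, 4.47 and 34.7. The UMIs behind plates 4 and 5 were 89 and 14 with H19 and 3 and 2 without, in 8 and 4 cells a side. The interaction was 4.39 ± 0.64 on the log2 scale (edgeR adjusted p = 0.00139). For mt-Nd1 it was 2.33 ± 0.39 (adjusted p = 0.00604), with 618, 897, 1200, 161 and 17 UMIs with H19 and 1105, 987, 1454, 52 and 2 without. Without plate 1 neither was called (adjusted p = 0.0513 for mt-Nd2 and 0.213 for mt-Nd1), and without plate 4 mt-Nd2 was at 2.89 (adjusted p = 0.163) while 18 genes were called. The mitochondrial genome list as a whole had 8 of 13 genes tested and a median of 0.14 over both origins, with mt-Nd5 at 0.67 ± 0.30.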

How the data were processed

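For each plate the authors deposited raw UMI counts by gene symbol and well. The submitters' processing notes name UMI-tools, featureCounts, SAMtools and mm10, while versions, annotation and strandedness were not given in any source used here. Reads of overlapping or near-identical genes may therefore be shared. The 96 well barcodes occur in all 12 plates, so they name wells. Of 480 fetal liver wells 454 were kept, and doublets were not called, the wells having been filled by single-cell sorting.

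UMIs were summed per plate and side, without H19, over cells paired by optimal assignment, with at least 3 pairs a plate. Sums held 72217 to 1416659 UMIs. They were tested in edgeR 4.0.16 (R 4.3.3) with TMM, filterByExpr and a plate block, with 4 residual and 16.1 prior degrees of freedom. The standard error is the log2 fold change over the square root of F. DESeq2 1.42.0 and limma 3.58.1 were alternatives. The script was tested on simulated data. Both sides of a plate share its library, so pairing by plate comes from the design. Binomial intervals cover counting error only.

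Named genes are the 10 of smallest p in each direction with at least 20 CPM on the higher side, since none passed, 9 genes of the imprinted, cycling and stem cell groups whatever their values, and, for the lists described, members among the 2 of smallest p; predicted genes are left out. Members, lists and rules were chosen with earlier results of these data known. Positions are from GENCODE M21, which held 98.3% of symbols.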

Additional observations from a re-analysis of the deposited data

Results flagged for a closer look

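Several values of 1 plate lay far from the other 4. Chance puts about 1 in 20 such groups of 5 past the limit used, and 37 genes were looked at beside the cell measures. In plate 3 the median mitochondrial share was 1.32% in all kept cells without H19, where the other plates had 0.0574% to 0.39%. In its paired cells it was 1.10% with H19 and 1.17% without, where the others had at most 0.341%. In plate 5 the ribosomal protein share of cells without H19 was 27.8%, beside 16.6% to 18.9% in the others, and this rests on 5 cells.

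As log2 ratios of CPM + 1, with against without H19 in the paired cells, Nipbl was at 6.93 in plate 5 and at 1.19 to 2.53 elsewhere. In the same plate Mecom was at 8.39, beside -0.32 to 1.23 elsewhere, and Arid3a at 7.10, beside 0.37 to 2.16. Mki67 was at 5.97 in plate 4 and at 0.77 to 2.21 elsewhere. In each of these 4 cases 0 UMIs were counted on the side without H19, so the ratios depend on the added 1 CPM. In plate 5 that side holds 4 cells and 72217 UMIs.

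The difference between the plates of the 2 origin codes was 2.33 for mt-Nd1 and 4.39 for mt-Nd2 on the log2 scale, by a test of the interaction itself.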

How the results depend on the processing

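The count of 0 genes in each direction in the paired cells held with every single plate left out and with no replicate block. Without that block 170 genes had an unadjusted p under 0.05, beside 255 with the plates paired. The count also held with DESeq2 size factors, with limma voom, with thinned pairs and with sums per origin code. It was the same with plates 1 to 3 only, with the stricter cell filter and with at least 2 or 5 UMIs of H19 against 0. It also held with cells under 1% mitochondrial UMIs, a setting chosen after seeing the data. Counting cells in place of UMIs called 0, but 0 of its 1635 genes had an unadjusted p under 0.05, so it could hardly call any. Depth as a covariate also called 0, of 9094 genes tested in all kept cells and not in the pairs. That covariate was 1 value per plate and side. Median UMIs per cell were higher with H19 in 4 of 5 plates, so depth and side were poorly separated there. All kept cells without an allowance for depth gave 1 gene higher and 67 lower, and thinning all cells to 10000 UMIs gave 29 lower. DESeq2 gave 1 higher (Nipbl) and 1 lower (AA465934). Dropping the filter on low counts gave 1 lower and easing it gave 1 lower (Ubl5 in both), and plates 4 and 5 alone gave 1 lower (Hist1h2bc). Leaving out 1 plate moved the counts in all kept cells, a check added after the counts were seen, to 0 to 2 higher and 43 to 64 lower. It moved the count of genes that differed between the origins to 0 to 18, and pairing changed it from 3 to 2.

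Of 812 values of 37 named genes under other settings, 770 kept direction and side of the threshold, 11 passed it with the same sign and 31 in 13 genes changed sign, all at an adjusted p above 0.05. In all kept cells with depth as a covariate the log2 fold changes were -1.24 for Ppp3ca, -0.96 for Mfap3, 0.00082 for Ubl5 and 0.15 for Ubl4a. In that fit they were also -0.66 for Cdkn1c, -0.33 for Mecom, -0.13 for Hlf, -0.68 for Ccnb1, -0.20 for mt-Nd5 and -1.63 for Hba-a2. Cdkn1c was at -0.21 in all kept cells, -0.52 thinned, -0.25 paired and thinned, -0.49 and -1.56 at 2 and 5 UMIs of H19, -0.070 in plates 1 to 3, -0.18 under the stricter filter and -0.35 under 1% mitochondrial UMIs. Mecom was at -0.20 in all kept cells, -0.076 thinned and -0.11 at 5 UMIs of H19, and Hlf was at -0.0074 thinned. For mt-Nd2 it was -0.16 with no replicate block, -0.084 thinned, -0.23 by limma voom and -0.26 in plates 1 to 3. Igf2 was at -1.14 in plates 4 and 5, and Atp5j at 0.012 with cells counted. With 1 plate left out Igf2 ran from -0.013 to 1.32, Cdkn1c from -0.12 to 0.44 and mt-Nd2 from -0.019 to 1.13. The cause of these changes was not tested.

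Depth limits both the split and the test. H19 at 0 UMIs is a low level at best, and 12 of 88 cells without it had no partner of like depth. In plate 5 a single UMI of Mki67 without H19 stood for 17.3 CPM.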
